A study of Danio rerio with 7 samples.

Results

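The sites described here are places in the zebrafish genome where a Cdx4 peak and a Sall4 peak coincided although no called domain of H3K27ac or H3K4me3 lay nearby. They were chosen by overlap and distance: a Cdx4 peak counted when it shared at least 1 bp with a Sall4 peak and its centre was more than 5 kb from every domain of both marks. Of 5166 Cdx4 peaks, 943 met this rule (18.3%, exact binomial 95% interval 17.2 to 19.3%, which covers counting error only). The rule has 2 conditions, and 45.5% of all Cdx4 peaks met the overlap condition while 43.6% met the distance condition. Overlap with Sall4 and distance from domains are therefore given below as descriptions of the chosen sites and not as results about them.

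Chromatin immunoprecipitation and sequencing (ChIP-seq) was performed on whole bud-stage embryos of the wild-type strain Tu, with 1 library each for Cdx4, Sall4, H3K27ac and H3K4me3. Cdx4 and Sall4 carried a Myc tag and both were pulled down with an anti-Myc antibody, and the 2 marks with antibodies of their own. Embryos had been kept uninjected or injected with mRNA at the 1-cell stage, and the labels do not name the injected libraries. Wild-type embryos make no Myc-tagged Cdx4 or Sall4 of their own, so the tagged factors were supplied from outside, presumably by that mRNA. For the 2 marks the labels leave this open. The Cdx4 and Sall4 peaks are thus positions of added, tagged protein, averaged over all cells of the embryo. The 3 input libraries were not analysed here. With 1 library per target there is no replicate, and differences between sets of peaks below are described with counting intervals and were not tested.

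Cdx4 belongs to the caudal family of homeodomain transcription factors. It patterns the posterior body and acts upstream of hox genes, and zebrafish without it make too little embryonic blood. Sall4 binds DNA through zinc fingers, as do the other spalt proteins, and is known from vertebrate embryos and pluripotent stem cells. H3K27ac is deposited on the histones of active enhancers and promoters, and H3K4me3 on those of promoters, so a factor-bound site lacking both is one at which these usual marks of activity were not called. In lists from whole embryos, a missing domain, a mark present in few cells and a mark below the authors' threshold cannot be told apart.

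Every Cdx4 and Sall4 peak spanned 100 bp. What the authors' score per peak measures is not stated in the labels or files, so it served only to rank peaks of the same list. Each list was cut by score into 4 groups of equal size, and the best of them is called the top score group. No annotation or sequence of assembly Zv8, whose prefix the scaffold names carry, was used here, so sites are named by position, without genes or bases.

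The site of the set with the best summed rank stood near the head of both lists. On chromosome 20 at 33284797 to 33284896, a Cdx4 peak with a score of 763 ranked 2 of 5166, and the Sall4 peak overlapping it, at 33284886 to 33284985, had a score of 558 and ranked 1 of 9747. Their centres were 89 bp apart, so the peaks shared only their edges. The nearest H3K27ac domain was 13.6 kb away and only 299 bp wide, with a score of 14 in a list whose median was 123. The nearest H3K4me3 domain was 24.1 kb away. Within 10 kb of the Cdx4 peak there were 4 Sall4-only peaks with scores between 69 and 162 and 2 further Cdx4 peaks. The other site of the set at this locus, at 33303801 to 33303900, lay 19.0 kb from the strongest one, with a Cdx4 score of 146 and a Sall4 score of 281. On the lower-coordinate side the locus ran into shared peaks with acetylation, at 33266763 (Cdx4 score 138), 33267231 (90) and 33270865 (144).

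The next sites in Cdx4 score had much lower Sall4 scores. The Cdx4 peak on chromosome 16 at 32575373 to 32575472 scored 662 (rank 3), and its Sall4 partner scored 139 (rank 1667). On chromosome 3, peaks at 20740900 to 20740999 and 20728016 to 20728115 had Cdx4 scores of 496 and 469 and Sall4 scores of 120 and 66. The latter was 7.37 kb from a domain and had 8 other Cdx4 peaks within 10 kb. The site on chromosome 12 at 9273662 to 9273761 had scores of 490 for Cdx4 and 157 for Sall4. Among the 10 sites with the highest Cdx4 scores, which ran down to 369, the Sall4 score exceeded 161 at only the chromosome 20 site and at chromosome 11, 3510825 to 3510924 (Cdx4 393, Sall4 238).

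The 10 sites with the highest Sall4 scores ranked from 2 to 3530 of 5166 in the Cdx4 list. Behind the chromosome 20 site, the highest Sall4 scores of the set were 465 on chromosome 6 (Cdx4 peak 10716944 to 10717043, Cdx4 score 104), 462 on chromosome 2 (26174865 to 26174964, Cdx4 score 191) and 459 on chromosome 9 (14156842 to 14156941, Cdx4 score 200). These Sall4 peaks ranked 4, 5 and 7 in their list, and the Cdx4 peaks 1597, 405 and 360 of 5166. The chromosome 2 site was 130 kb from H3K27ac but 8.99 kb from H3K4me3, whereas the chromosome 9 site was 40.9 kb from H3K27ac and 329 kb from H3K4me3. On chromosome 19 at 29775151 to 29775250 a Sall4 score of 352 (rank 28) accompanied a Cdx4 score of 68 (rank 3530). By summed rank in both lists, the sites after chromosome 20 were chromosome 11 at 3510825, chromosome 2 at 39127784 (Cdx4 230, Sall4 296), chromosome 9 at 14156842 and chromosome 1 at 23588451 (197 and 417). The site of the set nearest to the last of these was 4024 kb away. Shared peaks that did not meet the distance condition lay far closer to this chromosome 1 site, on both sides of it. The only other Cdx4 peak within 10 kb of it was such a peak. The other 5 of the best 10 by summed rank included chromosome 19 at 24725754 (Cdx4 218, Sall4 281), 79.3 kb from the nearest domain, and chromosome 21 at 26747497 (192 and 328), where the 2 centres were 3 bp apart and H3K27ac was 475 kb away. They also included chromosome 21 at 45579944 (252 and 234), which was 5.91 kb from H3K27ac and 167 kb from H3K4me3. These 10 sites thus ranged from just beyond the limit to 79.3 kb from the nearest domain. In the set as a whole, 30.6% of sites at 5 to 10 kb were in the top Cdx4 group. Over 100 kb away it was 7.69% of 52 sites. For Sall4 partners in the top Sall4 group the shares were 54.6% and 42.3%.

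Over the whole set, Cdx4 scores ran from 29 to 763 with a median of 85 (quartiles 67 and 118), and the Sall4 scores of the partners from 31 to 558 with a median of 114 (quartiles 81.5 and 166.5). The other 1408 shared Cdx4 peaks had medians of 99 for Cdx4 and 114 for Sall4. The set thus had a lower median Cdx4 score than the other shared peaks pooled, and the same median Sall4 score. By class, the median Cdx4 score of other shared peaks was 110 in H3K27ac domains alone and 82.5 in H3K4me3 domains. It was 92 for those within 5 kb of a domain and outside it. The median Sall4 scores of these classes, in the same order, were 111, 96 and 129. Of the 943 sites, 246 (26.1%, 23.3 to 29.0%) were in the top Cdx4 group, against 25% of all Cdx4 peaks, 32.9% of all shared peaks, 37.5% of the other shared peaks and 45.5% (41.7 to 49.3%) of the 690 shared peaks in an H3K27ac domain and no H3K4me3 domain. The share in the set was therefore close to that of the list as a whole. Shared peaks within 5 kb of a domain and outside it had 32.0% (28.1 to 36.2%) in the top Cdx4 group. Those in H3K4me3 domains had 23.4% (17.5 to 30.2%), and both intervals overlapped that of the set. Of the 1310 Cdx4-only peaks over 5 kb from domains, 9.77% (8.22 to 11.5%) were in that group, and their median Cdx4 score was 67.

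For Sall4, 442 sites (46.9%, 43.6 to 50.1%) had a partner in the top Sall4 group, against 25% of all Sall4 peaks and 46.4% of all shared Cdx4 peaks. The share was 46.0% for the other shared peaks and 45.1% (41.3 to 48.9%) for those in H3K27ac domains alone, so these values differed by less than their counting intervals. For shared peaks within 5 kb of a domain and outside it, the share was higher, at 54.1% (49.8 to 58.4%). That interval overlapped the interval of the set only at its edge. It was lower, at 26.1% (19.9 to 33.1%), for the 184 shared peaks in H3K4me3 domains. Within the set, 144 sites (15.3%) were in the top group of both lists, against 20.7% of other shared peaks. By class, the share was 20.4% near domains but outside, 23.8% in H3K27ac domains alone and 10.3% in H3K4me3 domains. In the bottom group of both lists were 59 sites (6.26%), against 3.62% of other shared peaks. The classes, in the same order, had 3.18%, 1.88% and 11.4%. In both cases the interval of the set did not overlap that of the other shared peaks pooled. The combination of a bottom-group Cdx4 score with a top-group Sall4 score held at 71 sites (7.53%, 5.93 to 9.40%), compared with 35 other shared peaks (2.49%, 1.74 to 3.44%). The opposite combination held at 11 sites (1.17%, 0.584 to 2.08%) and at 42 other shared peaks (2.98%, 2.16 to 4.01%). Of those 42 peaks, 36 were in H3K27ac domains alone (5.22% of that class, 3.68 to 7.15%), and the share was 0.936% (0.305 to 2.17%) for shared peaks within 5 kb of a domain and outside it. The interval of the set lay below that of the H3K27ac class and overlapped that of the peaks near domains. In the bottom Cdx4 group, 34.5% of the set's sites (28.0 to 41.4%) and 19.2% of other shared peaks (13.8 to 25.7%) had a top-group Sall4 partner. The latter share was made up of 23.7% (14.7 to 34.8%) in H3K27ac domains alone, 22.7% (13.8 to 33.8%) near domains and 0 of 31 peaks in H3K4me3 domains (up to 11.2%). The intervals of the first 2 of these classes overlapped that of the set. In the top Cdx4 group these shares were 58.5% and 55.3%, with overlapping intervals. Across the 943 sites, which are not replicates and come from 1 library per factor, Spearman's correlation between Cdx4 and Sall4 score was 0.26. It was 0.25 over all shared peaks, 0.13 for those in H3K27ac domains alone, 0.32 for those within 5 kb of a domain and outside it, and 0.46 for those in H3K4me3 domains.

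**Figure D1:**
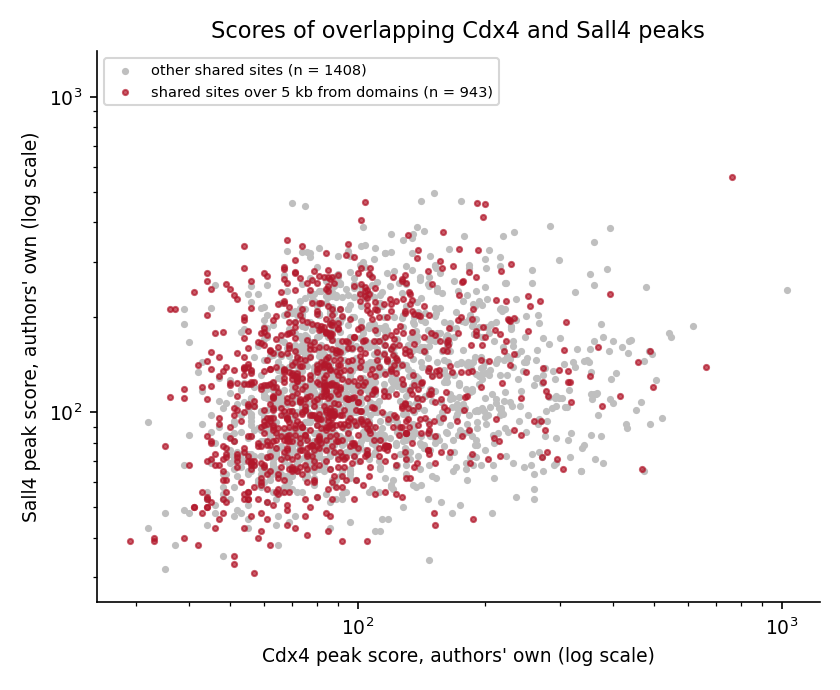
Each point is 1 Cdx4 peak that overlaps a Sall4 peak, with its Cdx4 score on the horizontal and the Sall4 score of its nearest partner on the vertical axis, both on log scales; red, the 943 sites over 5 kb from domains; grey, the other 1408 shared peaks. The red points thin out to the right, where Cdx4 scores are high, but reach as high as the grey points on the Sall4 axis, and 1 red point stands apart at 763 and 558.

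At the top of the Cdx4 list, 3 of the 10, 14 of the 100 and 84 of the 500 best-scoring peaks belonged to the set. The set made up 18.3% of the whole list. For comparison, 37 of the best 100 were shared peaks in H3K27ac domains alone (13.4% of the list). Another 5 were Cdx4-only peaks far from domains (25.4% of the list). In the Sall4 list, 944 of 9747 peaks overlapped a site of the set, and these were 4 of the 10, 24 of the 100 and 140 of the 500 best-scoring peaks. Peaks overlapping any Cdx4 peak were 8 of the 10, 72 of the 100 and 326 of the 500. The share of the whole Sall4 list that overlaps any Cdx4 peak is not given here. Whether the set is more frequent at the top than shared Sall4 peaks in general therefore cannot be read from these counts. Of the 5929 Sall4 peaks centred over 5 kb from domains, 941 (15.9%) overlapped a Cdx4 peak. At the weak end, the lowest Cdx4 score of the set was 29, on chromosome 23 at 41282018 to 41282117 with a Sall4 score of 39. The Cdx4 peak on chromosome 12 at 22505081 to 22505180 scored only 36 (rank 5098) but had a Sall4 partner scoring 212.

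Within the overlaps, the spacing of the peak centres did not stand apart from that of the other shared sites pooled. The median spacing was 26 bp, with quartiles at 12 and 48.5 bp, and the other shared peaks also had a median of 26 bp. Centres within 25 bp of each other were found at 458 sites (48.6%, 45.3 to 51.8%), against 49.1% of all shared peaks. Centres within 10 bp were found at 207 sites (22.0%), against 22.2% of all shared peaks. By class, the share within 25 bp was 46.6% for shared peaks near domains but outside and 49.0% in H3K27ac domains alone. In H3K4me3 domains it was 59.2% (51.8 to 66.4%), with a median spacing of 20 bp, and this interval met that of the set only at its edge. The Sall4 centre was at the higher coordinate in 49.9% of sites (46.7 to 53.2%), so neither side was in a clear majority. Closeness did not follow the score in one direction. By Cdx4 group, starting with the best scores, the share within 25 bp was 45.5%, 52.8%, 52.2% and 42.7%, and every one of these intervals overlapped the others. A single Sall4 peak was overlapped at 914 sites and 2 at 29 sites (3.08%), against 2.47% of all shared peaks with 2. Another Cdx4 peak was overlapped by 32 sites (3.39%), against 4.59% of all shared peaks. Of the Sall4 peaks, 28 overlapped 2 sites of the set. At 863 of the 943 sites the pair was one-to-one, meaning that the site overlapped a single Sall4 peak and that this Sall4 peak overlapped no other Cdx4 peak. For these last 2 counts no value of other shared peaks is given here, so neither shows a trait of the set.

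**Figure D2:**
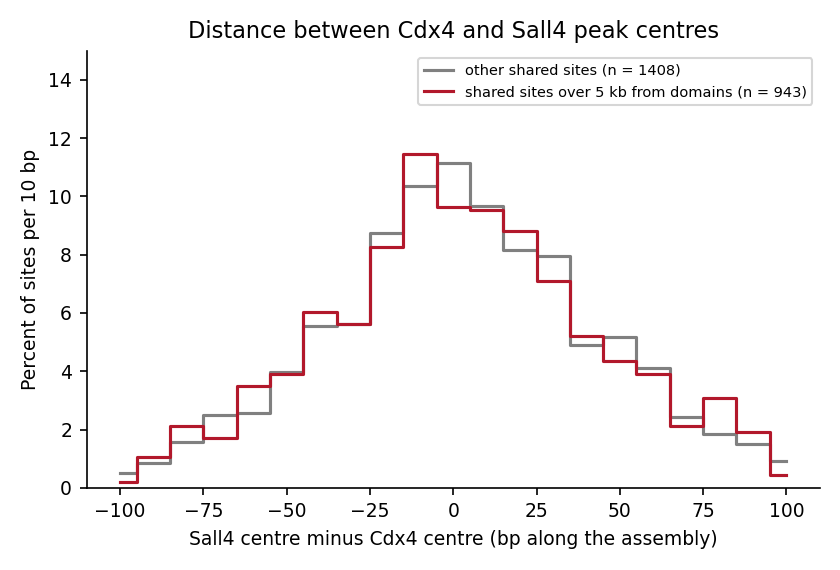
The signed distance from Cdx4 to Sall4 peak centre (bp, horizontal) is shown as the percent of sites per 10 bp (vertical) for the 943 sites over 5 kb from domains (red) and the other 1408 shared peaks (grey). Both curves peak around 0 and fall to near 0 toward 100 bp, where peaks of this width cease to overlap.

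Most sites of the set were much farther from domains than the 5 kb that the rule asked for. Among the 921 sites on a sequence with a domain of either mark, the nearest domain was a median of 20.8 kb away (quartiles 11.1 and 39.5 kb). It was over 20 kb away for 473 sites, over 50 kb for 171 and over 100 kb for 52. The median distance was 38.6 kb to H3K27ac and 34.4 kb to H3K4me3. Cdx4-only peaks that met the same distance condition lay farther away still. Their median was 29.2 kb to the nearest domain (quartiles 13.5 and 61.3 kb), 86.8 kb to H3K27ac and 42.1 kb to H3K4me3. On sequences with domains of both marks, H3K4me3 was the nearer for 509 sites, H3K27ac for 389, and both were equally near for 3. The H3K4me3 list was also the longer, with 19401 domains against 4599. The nearest H3K27ac domain was no more than 500 bp wide for 742 of 912 sites (81.4%), close to the 80.3% of all H3K27ac domains that were this narrow. The farthest site, on chromosome 19 at 44378249 to 44378348 (Cdx4 70, Sall4 131), was 481 kb from any domain. It was followed by chromosome 19 at 38082187 (371 kb), chromosome 7 at 46965430 (312 kb), chromosome 5 at 46881264 (306 kb) and chromosome 10 at 22952636 (254 kb). These 5 had Cdx4 scores between 44 and 108, and none had another Cdx4 peak within 10 kb.

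Close to the limit of the rule, Cdx4 scores on either side overlapped, but so few values cannot show whether there is a break. The sites just over it, at 5003.5, 5018.5, 5042.5, 5044.5 and 5049.5 bp, had Cdx4 scores of 54, 105, 48, 127 and 146. The shared peaks just under it, at 4982.5, 4961.5, 4949.5, 4939.5 and 4916.5 bp, had Cdx4 scores of 141, 154, 45, 298 and 121. Within 500 bp of the limit there were 35 sites on the far side and 36 on the near side.

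With growing distance, a smaller share of Cdx4 peaks overlapped Sall4. Overlap was found for 50.9% of Cdx4 peaks 5 to 10 kb from a domain (45.8 to 56.0%), 50% at 10 to 20 kb, 44.6% at 20 to 50 kb, 35.4% at 50 to 100 kb and 25.5% over 100 kb away (19.7 to 32.0%). Nearer than the limit it was 54.6% at 2 to 5 kb, and 45.3% for peaks centred in a domain. The Cdx4 score moved with the distance: the median score of all Cdx4 peaks was 82 at 5 to 10 kb and 66 over 100 kb away. When the Cdx4 list was split at its median score, overlap between these classes went from 64.2% (57.0 to 71.0%) to 34.0% (21.5 to 48.3%) in the better-scoring part and from 37.9% (31.1 to 45.2%) to 22.5% (16.1 to 30.02%) in the other. The sites of the set themselves had median scores of 90 for Cdx4 and 126 for Sall4 at 5 to 10 kb and of 70.5 and 104 over 100 kb away. Overlap with Sall4 is part of the rule, so these shares describe how the set is made up along the distance.

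**Figure D3:**
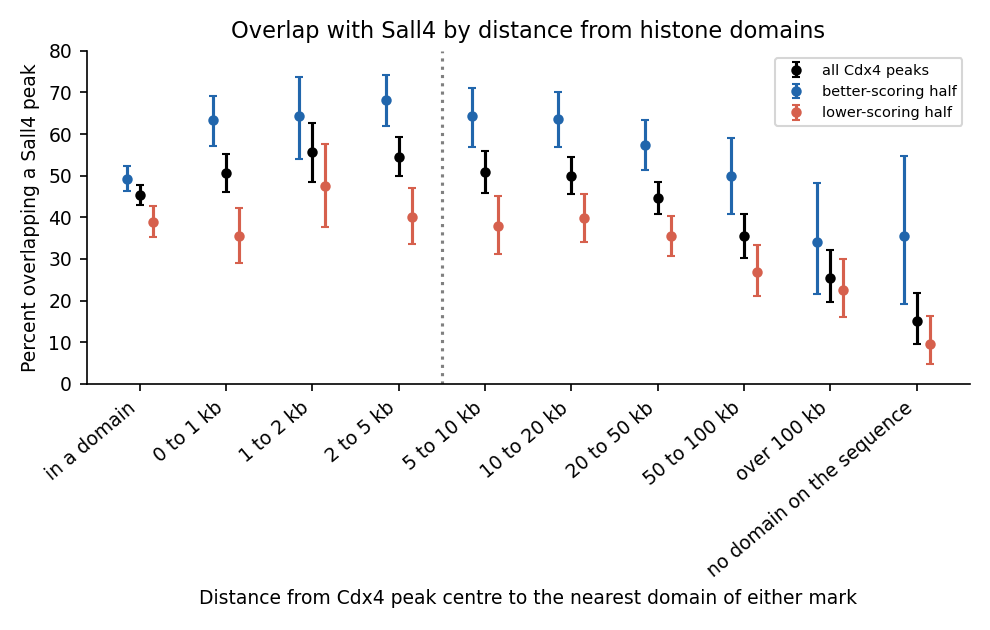
The percent of Cdx4 peaks that overlap a Sall4 peak (vertical, with exact 95% binomial intervals) is shown by distance from the nearest domain of either mark (horizontal classes), for all Cdx4 peaks (black) and for the better-scoring (blue) and lower-scoring (red) part of the list; the dotted line marks 5 kb. To the right of the line the black points go from 50.9% down to 25.5%, and to 15.0% on sequences without a domain, with the blue points above the red ones in each class.

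Other Cdx4 peaks lay around the sites about as often as around Cdx4 peaks in general. Another Cdx4 peak was centred within 10 kb of 453 sites (48.0%, 44.8 to 51.3%), against 45.4% of all Cdx4 peaks. The share was 63.4% (60.8 to 65.9%) for other shared peaks and 28.8% (26.3 to 31.3%) for Cdx4-only peaks far from domains. Among other shared peaks it was 73.6% (69.6 to 77.3%) near domains but outside and 60.3% (56.5 to 64.0%) in H3K27ac domains alone. In H3K4me3 domains it was 45.7% (38.3 to 53.1%). In the top Cdx4 group alone the share was 60.2% (53.7 to 66.3%) in the set and 69.7% (65.6 to 73.6%) for other shared peaks. It was 36.7% (28.4 to 45.7%) for Cdx4-only peaks far from domains. Split by class, other shared peaks of that group had 87.1% (81.2 to 91.8%) near domains but outside. They had 61.1% (55.5 to 66.6%) in H3K27ac domains alone and 62.8% (46.7 to 77.0%) in H3K4me3 domains. Of these classes, only the interval near domains lay above that of the set. Neighbouring Cdx4 peaks count each other, so the peaks are not independent here. The intervals may therefore be too narrow, and their separation is not a test. The neighbour was itself shared with Sall4 for 382 sites (40.5%, against 33.0% of all Cdx4 peaks) and Cdx4-only for 223 (23.6%, against 27.2%), and some sites had both kinds. Other shared peaks had a shared neighbour in 52.4% (49.8 to 55.1%) and a Cdx4-only one in 34.4% (31.9 to 36.9%). A shared neighbour was found for 64.4% of those near domains but outside, 47.1% in H3K27ac domains alone and 37.5% in H3K4me3 domains. Cdx4-only peaks far from domains had 14.8% and 20.0%. At least 1 Sall4-only peak was found within 10 kb of 552 sites (58.5%, 55.3 to 61.7%), against 41.0% of all Cdx4 peaks. The share was 54.1% (51.5 to 56.7%) for other shared peaks, 62.5% (58.3 to 66.7%) for those of them near domains but outside, and 24.2% (21.9 to 26.6%) for Cdx4-only peaks far from domains. The Sall4 list is the longer one, with 9747 peaks. Groups with 3 or more other Cdx4 peaks within 10 kb were found at 11.1% of the set (9.20 to 13.3%) and 14.4% of all Cdx4 peaks. The share was 29.2% (25.4 to 33.3%) for the 534 shared peaks that lay within 5 kb of a domain and outside it, 19.0% (16.1 to 22.1%) for those in H3K27ac domains alone, 19.0% (13.6 to 25.4%) in H3K4me3 domains and 7.48% (6.11 to 9.04%) for Cdx4-only peaks far from domains.

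**Figure D4:**
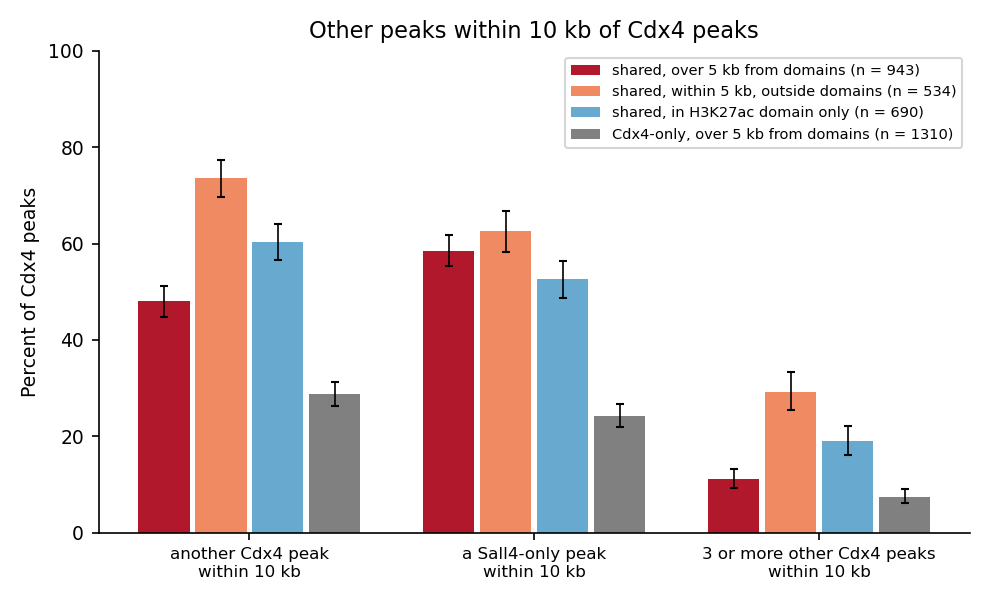
Bars give the percent of Cdx4 peaks (vertical, exact 95% binomial intervals) that have another Cdx4 peak, a Sall4-only peak, or 3 or more other Cdx4 peaks within 10 kb, for the 943 shared sites over 5 kb from domains (red), 534 shared peaks within 5 kb but outside domains (orange), 690 shared peaks in H3K27ac domains alone (blue) and 1310 Cdx4-only peaks over 5 kb from domains (grey). The red bars are above the grey ones in all groups of bars (48.0%, 58.5% and 11.1% against 28.8%, 24.2% and 7.48%), and the orange bars are the highest in all groups.

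Taken by themselves, 330 of the 943 sites (35.0%) had another site of the set within 10 kb, and 148 within 1 kb. No share of this kind is given for other sets of Cdx4 peaks, so the grouping below is a description and not a trait of the set. Joining sites with gaps up to 10 kb gave 107 pairs, 22 chains of 3, 5 of 4 and 6 of 5, and 613 sites stood alone. The chains of 5 were on chromosomes 1 (53434427 to 53447111), 3 (51064528 to 51073166), 9 (33162217 to 33171384), 13 (19007921 to 19025639), 19 (17001212 to 17013050) and 23 (35282763 to 35296991). They spanned between 8.64 and 17.7 kb. In the chromosome 9 chain the Cdx4 scores were 55, 141, 234, 295 and 151 and the Sall4 scores 139, 86, 153, 71 and 48, so the site with the highest Cdx4 score had one of the lower Sall4 scores. In the chromosome 13 chain the Cdx4 scores stayed between 69 and 98, while Sall4 ran from 67 to 271. Members of a chain can overlap: in the chromosome 3 chain the Cdx4 peaks at 51069041 and 51069117 had the same Sall4 partner, with a score of 141.

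Between neighbouring domains, 901 of the sites fell into 616 stretches free of both marks, with a median length of 102 kb (quartiles 50.6 and 193 kb). A further 20 sites lay beyond the outermost domain of their sequence, and 22 on sequences with no domain. Of these stretches 444 held 1 site, 172 held 2 or more and 17 held 5 or more. A Sall4-only peak was also present in 464 of them (75.3%), and a Cdx4-only peak over 5 kb from domains in 180 (29.2%). These shares are not alike, since Sall4-only peaks were also counted within 5 kb of a domain and come from the longer list. No share for stretches without a site is given here, so neither value shows a trait of the set. The largest number, 7 sites, was reached in 2 stretches. On chromosome 5, from 22370500 to 22442899, the sites gathered in a group at 22376342 to 22383413 and another at 22400182 to 22403641. Their Cdx4 scores were 122, 83 and 123 in the first group and 120, 176, 47 and 68 in the second. The sites at 22376342 and 22376446 overlapped the same Sall4 peak, as did those at 22403394 and 22403542, so this stretch held fewer Sall4 partners than sites. The H3K27ac domain that bounds this stretch at 22370300 to 22370499 was 200 bp wide and had a score of 0. On chromosome 18, from 20464499 to 20584999, the sites began at 20501610, 20510354, 20532111, 20532196, 20534666, 20535129 and 20578419. The central 4 of these lay within 3.12 kb, with Cdx4 scores of 129, 269, 89 and 255 and Sall4 partners, nearest by centre, scoring up to 225. That window of 100 kb, 20500001 to 20600000, held the most sites of any window, 7 of its 14 Cdx4 peaks, together with 17 Sall4 peaks. Next came windows with 6 sites on chromosome 1 (53400001 to 53500000, of 8 Cdx4 peaks), chromosome 13 (18900001 to 19000000, of 7) and chromosome 3 (51000001 to 51100000, of 13). The window adjoining that on chromosome 13, up to 19100000, held 5 more sites. A window on chromosome 19, 24700001 to 24800000, touched no domain of either mark and held 5 sites among 7 Cdx4 and 11 Sall4 peaks. In all, 664 windows held a site, 60 held 3 or more and 11 held 5 or more, while 250 sites were the only Cdx4 peak of their window. Windows of 100 kb with at least 5 peaks of each factor held 231 sites of the set (24.5%), against 19.1% of all Cdx4 peaks. By the rule every site comes with a Sall4 peak, whereas 45.5% of all Cdx4 peaks do. A higher share in such windows is thus favoured by construction, and no value for other shared peaks is given here.

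The set was spread over all 25 assembled chromosomes, which held 893 of the sites. Chromosome 9 had the highest share of its Cdx4 peaks in the set, 51 of 193 (26.4%, 20.4 to 33.2%), and chromosome 15 the lowest, 17 of 137 (12.4%, 7.40 to 19.1%). These are the extremes of 25 values. Their intervals did not overlap, and those of chromosomes 22 (25%, 17.5 to 33.7%) and 17 (23.6%, 17.7 to 30.2%) overlapped both. Only the chromosome 9 interval lay wholly above the 18.3% of the whole list. On chromosome 9, 59.6% of Cdx4 peaks were over 5 kb from domains and 47.2% overlapped Sall4, compared with 35.8% and 43.8% on chromosome 15. Chromosome 9 had 807 domains on 54.7 Mb reached by the lists, and chromosome 15 had 790 on 47.2 Mb. Per length, chromosome 23 was densest with 1.19 sites per Mb and chromosome 4 sparsest with 0.335. All Cdx4 peaks were likewise densest on chromosome 23 (6.04 per Mb) and sparsest on chromosome 4 (1.98 per Mb), and 19.6% and 16.9% of them belonged to the set. The second part of chromosome 4, past its midpoint, held 1 of that chromosome's 24 sites and 4 of its 142 Cdx4 peaks. The remaining 50 sites lay on 37 unplaced scaffolds, where 13.7% of Cdx4 peaks belonged to the set. For 22 of them the scaffold had no domain at all, so the distance condition was met without a measured distance.

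**Figure D5:**
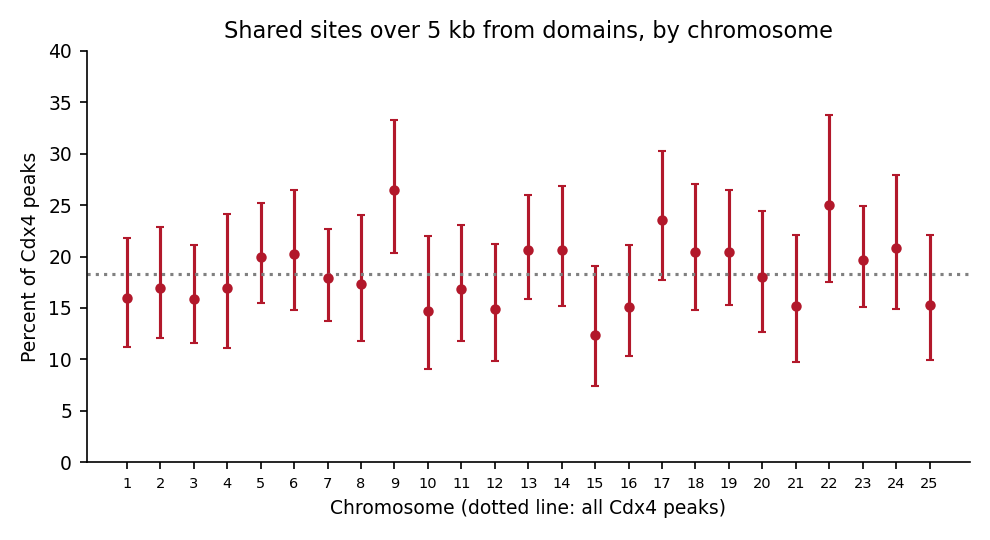
The percent of each chromosome's Cdx4 peaks that are shared with Sall4 and over 5 kb from domains (vertical, points with exact 95% binomial intervals) is plotted for chromosomes 1 to 25, with the share over the whole Cdx4 list, 18.3%, as a dotted line. Chromosome 9 is highest at 26.4% and chromosome 15 lowest at 12.4%, and most intervals span the line.

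Both factor libraries used the same anti-Myc antibody, and no precipitation from embryos without a tag was used here. Whether any of the 943 positions would also be recovered without the tag was not tested.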

How the data were processed

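ChIP-seq interval lists of 1 library each for Cdx4, Sall4, H3K27ac and H3K4me3 were used. The authors deposited a whole-number score per interval without a statement of its meaning in the labels or files. Factor peaks bear the name of the GPS caller, per the files' interval names. The submitters' processing notes name Bowtie 0.12.7 and CASAVA 1.4, without roles. Neither thresholds nor depth are stated, nor how inputs were used. Per the labels' protocols, 500 embryos were collected per experiment and crosslinked in 1.1% formaldehyde for 15 minutes.

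Positions count from 1, and both ends belong to an interval. Distances run from the Cdx4 peak centre to the nearest edge of a domain. A site with several Sall4 peaks was assigned the one nearest by centre. Intervals are exact (Clopper-Pearson) at 95% and cover counting error only. No difference was tested, since each target has 1 library. The rule for sites and the distances between centres were checked on simulated data. The simulated peaks lay too far apart to form chains, and counts of neighbours, windows and stretches were not checked. Named positions followed a rule: highest and lowest scores, best summed rank, greatest distance, nearest to the limit, and most sites per chain and window, and extreme chromosomes. The stretches, and the positions of single peaks within the described loci, were added after values were seen. The sites and rules were chosen with earlier results of these data known. Alternatives covered overlap, distance, domains, sequences, peaks and coordinate reading. Software was scipy 1.17.1, pandas 2.3.3 and numpy 2.4.6 under Python 3.11.15, with figures by matplotlib 3.10.9.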

Additional observations from a re-analysis of the deposited data

How the results depend on the processing

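Of 15 alternatives for the number of sites, 11 gave a number within 1.5 times the 943. The others were 458 with centres within 25 bp, 513 in the better-scoring part of the Cdx4 list, 1751 with H3K4me3 alone deciding the distance and 1689 with only domains over 500 bp wide. The median H3K27ac domain was 399 bp wide, so the last of these settings leaves out most of that list. Leaving out domains with a score of 0 (158 of H3K27ac and 1128 of H3K4me3), an alternative chosen after seeing the data, gave 976.

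The share of sites in the top Cdx4 score group (26.1%) became 33.7% with H3K4me3 alone, 32.3% with wide domains alone, 48.0% among better-scoring Cdx4 peaks and 30.6% with a Sall4 list cut to the length of the Cdx4 list. The last 2 settings moved the share with a top-group Sall4 partner from 46.9% to 54.0% and 65.2%. Score groups stayed those of the full lists. The 48.0% for Cdx4 holds the same 246 sites among fewer, so it rose by construction. The 65.2% for Sall4 likewise comes after lower-scoring Sall4 peaks were removed, so a rise was built in. The share of centres within 25 bp (48.6%) became 63.4% with at least 50 bp shared, 100% with centres within 25 bp, and 42.4% with centres within 500 bp. All of these rest on the same 458 sites and differ by construction, through the number of sites they are set against. The share over 20 kb from domains (51.4%) became 40.6% with a limit of 2 kb, 65.2% with 10 kb, 67.4% with H3K27ac alone, 66.9% with H3K4me3 alone and 71.6% with wide domains. With limits of 2 and 10 kb the sites over 20 kb away are the same 473. Those 2 shares therefore changed by construction.

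The share with another site within 10 kb (35.0%) became 26.5% with at least 50 bp shared, 17.7% and 40.9% with centres within 25 and 500 bp, 44.7% with H3K4me3 alone, 43.0% with wide domains, 28.3% in the better-scoring part, and 27.1% and 41.8% with gaps of 5 and 20 kb. Windows of 100 kb with 3 or more sites (60) numbered 34 with at least 50 bp shared, 11 with centres within 25 bp, 39 with a limit of 10 kb, 160 with H3K4me3 alone, 151 with wide domains and 26 in the better-scoring part. Where a shift did not follow by construction, its cause was not tested beyond what the setting does to the number of peaks. Reading starts as counted from 0 left the number of sites and these shares and windows as they were, and was not run for the other values. No paired analysis was possible because each target has 1 library. Depth is unknown, so weak domains and peaks below the authors' thresholds are not seen.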
